A study of Mus musculus with 20 samples.

Results

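Neutrophils sorted from the pancreatic tumor were compared with neutrophils sorted from the blood of sham mice across all genes. The comparison takes 8 of the 20 libraries of the series, 4 from tumors and 4 from sham blood, chosen by the tissue and disease state in their labels. Tumor libraries carry replicate numbers 1, 2, 3 and 5 and sham libraries 1 to 4, and values of single libraries are given in that order. The other 12 libraries hold neutrophils from the liver, the brain and the blood of tumor mice, and they enter only where they are set beside this comparison.

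All mice were WT, of the strain that the labels give as C57BL/6 and the methods as C57BL/6J, and the study used males and females aged 7 to 12 weeks. Tumor mice received KPC cells, a murine pancreatic ductal adenocarcinoma (PDAC) line that comes from tumors driven by Pdx1-Cre, and sham mice received PBS. Every tumor thus grew from 1 transplanted line rather than from the pancreas of the mouse itself. Cells were taken at 10 d.p.i. (days post-inoculation). The tumor was removed after perfusion with PBS and digested with collagenase in the warm, whereas blood was drawn before perfusion and its red cells were lysed without digestion. The site, the disease of the mouse and the digestion therefore change together between these groups and cannot be told apart. Live CD11b-high Ly6G-high single cells were sorted and their RNA was amplified with SMART-Seq v4, a kit for very small inputs that keeps no strand information. The labels do not say which libraries come from separate mice, so p-values measure the spread between these libraries.

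Neutrophils are short-lived granulocytes that leave the bone marrow with most of their granule proteins already made. In blood they carry the chemokine receptor CXCR2, which follows CXCL1, CXCL2 and related ligands into tissue. In tumors they are known for states that make chemokines and growth factors, that degrade arginine, or that restrain T cells, and oxygen and nutrients are scarce there.

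The libraries were deep and of like size, with 50284744 to 52657231 counts in the tumor and 48336758 to 51176440 in sham blood. A count was found for 17238 to 19594 genes per tumor library and 15765 to 17122 genes per sham library. The 10 most abundant genes took 8.38 to 13.3% of the counts in the tumor and 6.83 to 7.55% in sham blood. Levels are given as CPM, counts scaled by TMM to a common library size (edgeR's CPM), and since they are not divided by gene length they are compared between libraries and not between genes. Mean levels are given ± their SD over the 4 libraries of a group and log2 fold changes, tumor over sham blood, ± their SE. Intervals and limits from counts cover counting error only.

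Both genes of the sort were detected in all 8 libraries. Itgam, which encodes CD11b (chromosome 7, positions 128062640 to 128118491 on mm10), had 263, 286, 270.0 and 356 CPM in the tumor and 352, 302, 364 and 272 CPM in sham blood. These ranges overlap and the gene did not pass the test (log2 fold change -0.13 ± 0.15, adjusted p = 0.57). An overlapping gene model, Gm49368, covers 68.7% of its exon bases and had 0.183 CPM in the tumor and 1.43 CPM in sham blood, and counts without strand cannot separate them. Ly6g, the neutrophil surface protein of the sort (chromosome 15, positions 75155240 to 75159126), had 1.43, 9.28, 2.72 and 13.2 CPM in the tumor, all below the 33.3, 86.3, 61.3 and 43.9 CPM of sham blood. Its transcript fell by 3.08 on the log2 scale (SE 0.52, adjusted p = 1.2e-04), although cells of both groups were sorted for high Ly6G protein.

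Of 28762 genes tested, 1980 were called higher in tumor neutrophils (6.88% of all tested) and 1128 lower (3.92%). Genes were called where the quasi-likelihood test of edgeR gave an adjusted p under 0.05 and the levels differed by 4-fold or more, a log2 fold change past 2 in either direction. Without the fold threshold, 3209 genes rose (11.2%) and 2974 fell (10.3%). Of the called genes, 887 had at least 10 CPM in the tumor and 629 had at least 10 CPM in sham blood. All 4 tumor libraries lay above all 4 sham libraries for 1610 of the genes called higher, and below them for 1024 of those called lower, where such separation held for 14.3% and 12.5% of all tested genes. The median SD of log2 CPM over genes of at least 10 CPM was 0.362 in the tumor and 0.325 in sham blood.

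**Figure D1:**
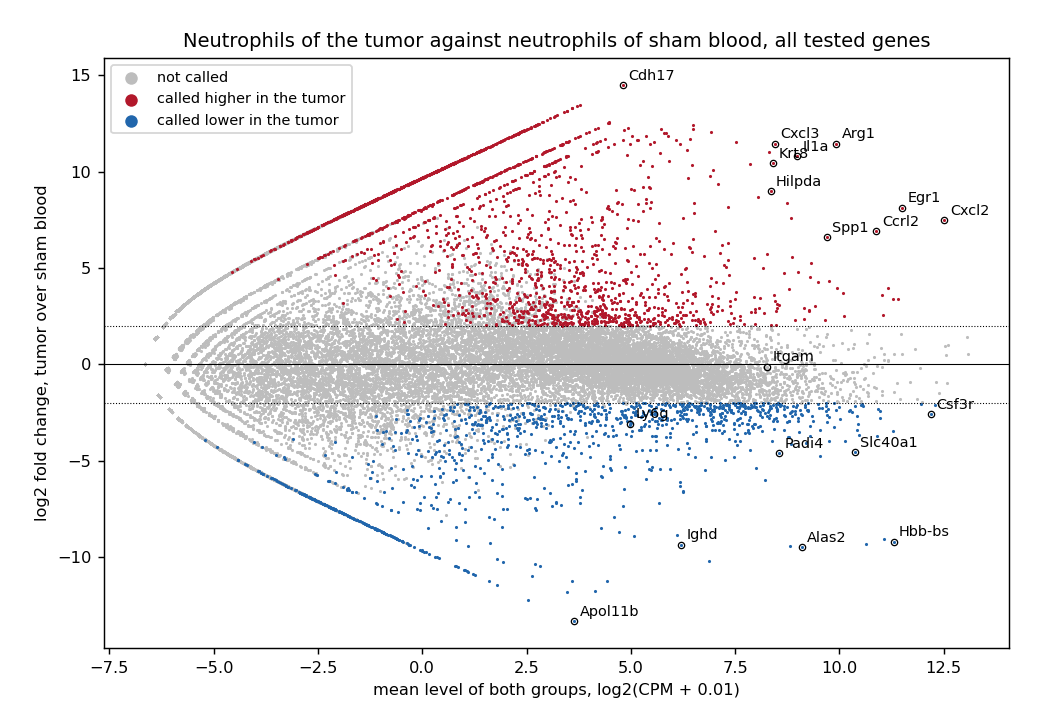
Each point is 1 of 28762 tested genes, with its mean level over the tumor and sham blood groups as log2(CPM + 0.01) on the x axis and its log2 fold change, tumor over sham blood, on the y axis. The 1980 genes called higher are red, the 1128 called lower are blue, dotted lines mark a log2 fold change of 2 in either direction, and the slanted bands at the edges are genes with few counts or none in a group, whose fitted folds, Cdh17 and Apol11b included, are not bounds.

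The titles give a sequencing lane for every library, and each tumor library shared its lane with a sham library. Tumor replicates 2 and 3 share theirs with sham replicate 2, so 3 sham libraries enter this comparison and sham replicate 1 does not. Within lanes, 1622 of the genes called higher were above the sham library in 4 of 4 tumor libraries, and 1056 of those called lower were below it, against 18.1% and 16.9% of all tested genes. With lane as a term Rela, Slc16a3, Cd177 and H2-Eb1, given below, did not pass an adjusted p of 0.05. Tumor replicates 1 and 3 held the most fibroblast transcripts, as given below, and without both of them 1199 genes were called higher and 693 lower. Of the genes given below, Alox5ap, Bst2, C5ar1, Col1a1, H2-Eb1, Ier5, Lta4h, Mxi1, Nfkb2, Rela, Rtp4, Slc16a3, Slc27a2 and Vsir did not pass there. In bulk RNA of sorted cells, a lower level can come from fewer cells that express a gene or from less RNA in each cell, and these cannot be told apart.

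The largest rises were of genes with no count in any sham library, so that only a lower limit of the fold can be given, set against 3 counts over the group. Cdh17, a cadherin of gut and pancreatic epithelium, had 64.9, 50.2, 89.96 and 17.7 CPM in the tumor and was at least 3823-fold higher there (adjusted p = 6.0e-05). Apob, the structural protein of lipoproteins, had 17.1, 28.6, 31.5 and 32.4 CPM in the tumor, at least 1815-fold more than in sham blood. Hnf4a, a nuclear receptor that directs gut and liver epithelium, had 20.04, 22.9, 40.8 and 4.81 CPM, at least 1533-fold more. Most of the 12 genes with the largest rises are known from epithelium or connective tissue. The other 9 were Mal2, Rnase2a, Ankrd1, Pgf, Stra6, Dsc2, Krt23, Gcnt3 and Cav1, with mean levels of 16.7 to 26.03 CPM in the tumor and folds of at least 1150.5 to 1767. Among them, Pgf encodes placental growth factor, Dsc2 a desmosomal cadherin, Krt23 a keratin, and Cav1 the coat protein of caveolae. Rnase2a belongs to a family of near-identical eosinophil ribonucleases, so its counts are uncertain.

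The largest falls were of genes of red cells and platelets and of a few genes of blood neutrophils or lymphocytes. Apol11b, an apolipoprotein L family member, had 27.5, 23.4, 24.5 and 24.6 CPM in sham blood and no count in any tumor library, so it was at least 2226-fold lower in the tumor (adjusted p = 3.2e-04). It was also detected in the blood of tumor mice, with a mean of 169.7 CPM, and it stood at 1.59 CPM in the brain and 1.66 CPM in the liver. S1pr5, a sphingosine phosphate receptor, had 2 counts over the 4 tumor libraries against 17.1, 33.8, 32.4 and 57.6 CPM in sham blood, a ratio of sham blood to tumor of 4820.1 with a 95% counting interval of 1334 to 39809. Slc6a4, the serotonin transporter that platelets carry, had no count in the tumor and 5.51, 1.01, 33.9 and 5.92 CPM in sham blood, most of it in replicate 3. Mpig6b, a platelet inhibitory receptor, had 5.22, 2.71, 37.7 and 6.67 CPM in sham blood against 2 counts in the tumor. Slc4a1, the anion exchanger of the red cell membrane, averaged 0.0164 CPM in the tumor against 43.1 CPM in sham blood. Alas2, the erythroid heme synthesis enzyme, had 0.208, 0.0583, 1.42 and 4.42 CPM in the tumor and 873, 1089, 1126 and 1280.3 CPM in sham blood and fell by 9.49 on the log2 scale (SE 1.09, adjusted p = 1.2e-06). Hbb-bt, Slamf1 and Chst3 were also among the 12 largest falls, at 1.30, 0.0037 and 0.0079 CPM in the tumor against 905, 12.4 and 14.1 CPM in sham blood.

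These rises and falls moved with markers of other cells, which were summed in each library from lists of known markers. Macrophage markers summed to 7195 to 11249 CPM in the tumor and 1836 to 2223 CPM in sham blood, and 16 of 20 rose while none fell. C1qa, C1qb and C1qc, the chains of complement C1q that tissue macrophages make, averaged 524, 909 and 852 CPM in the tumor against 1.25, 4.73 and 2.60 CPM in sham blood. Markers of tumor and duct epithelium summed to 1352 to 4652 CPM in the tumor and 163 to 240.0 CPM in sham blood, with 16 of 18 higher and 1 lower. Krt8, Krt18 and Krt19, keratins of simple epithelium, averaged 680.1, 459 and 635 CPM in the tumor, and each was under 1 CPM on average in sham blood.

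Fibroblast markers were uneven over the tumor libraries. They summed to 1091, 45.9, 466 and 63.7 CPM in tumor replicates 1, 2, 3 and 5 and to 61.4 to 136 CPM in sham blood, and 10 of 17 rose and 1 fell. Col1a1, Col1a2 and Col3a1, the collagen chains of connective tissue, ran from 3.78 to 221, from 0.102 to 145 and from 6.55 to 333 CPM over the tumor libraries. Without tumor replicate 1, 6 fibroblast markers rose, and without tumor replicates 1 and 3, 5 rose. The lower member, Acta2, is the smooth muscle actin and averaged 13.4 CPM in the tumor and 84.5 CPM in sham blood. Endothelial markers summed to 58.5 to 136 CPM in the tumor and 46.4 to 144 CPM in sham blood, with 9 of 18 higher and 1 lower, where 5 were higher without sham replicate 1 and 3 without tumor replicates 1 and 3. Acinar markers, the digestive enzymes of the exocrine pancreas, were low, at 18.8, 25.02, 31.6 and 125 CPM in tumor replicates 1, 2, 3 and 5 against 2.98 to 6.32 CPM in sham blood, and 10 of 18 rose, although leaving out any sham library or tumor replicate 5 brought this to 3 to 5.

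The blood libraries held the opposite set. Erythroid markers summed to 37.05 to 137 CPM in the tumor and 10806 to 19617 CPM in sham blood, and 9 of 13 fell. Hbb-bs, the beta globin with the most counts (chromosome 7, positions 103826534 to 103828096), had 0.864, 1.66, 10.8 and 20.5 CPM in the tumor and 3546, 4338, 4958 and 7275 CPM in sham blood, and the alpha globin Hba-a1 had 0.774, 1.89, 8.39 and 20.5 CPM in the tumor against 3230.1, 4251, 4214 and 5508 CPM. The globins exist as near-identical copies, so the split between copies is uncertain. The erythroid member that rose, Tfrc, is the transferrin receptor of dividing cells in general and averaged 59.2 CPM in the tumor against 5.46 CPM in sham blood. Platelet markers summed to 37.1 to 225 CPM in the tumor and 338, 232, 1958 and 445 CPM in sham replicates 1 to 4, and 13 of 15 fell. B cell markers summed to 1244, 84.7, 49.5 and 275 CPM in tumor replicates 1, 2, 3 and 5 and 1447 to 2720.3 CPM in sham blood, and 14 of 17 fell. T cell and NK cell markers summed to under 70 CPM in every library of both groups. Of them 1 of 18 and 2 of 14 fell, below and near the 10.3% of all tested genes that fell. Without tumor replicate 1, which held the most of both, 5 T cell markers fell, and without any of sham replicates 2 and 3 and tumor replicates 2, 3 and 5 no NK cell marker did. Of 14 monocyte markers 4 rose, 2 without tumor replicate 1 or sham replicate 1, and 5 fell. Among them, Fn1, fibronectin, rose to 499 CPM in the tumor against 45.5 CPM in sham blood and Ace, Treml4 and Cd300e, genes of patrolling monocytes, fell to 1.92, 7.85 and 0.662 CPM against 87.8, 107 and 39.04 CPM. Dendritic cell markers summed to 139.9 to 389 CPM in the tumor and 116 to 298 CPM in sham blood, with 3 of 14 higher and 3 lower. For eosinophils, mast cells and basophils 2 of 17 rose and 2 fell, 1 each without tumor replicate 5. The shares of dendritic cell markers lie above the 11.2% and 10.3% of all tested genes that rose and fell, and those of this last list lie near them. The riser with the most counts was Siglecf, at 264 CPM in the tumor against 56.3 CPM, a gene also listed for tumor neutrophils. The part of these cells in the results that follow was not tested. Some genes below belong to a marker list too, such as Apoe and Siglecf.

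**Figure D2:**
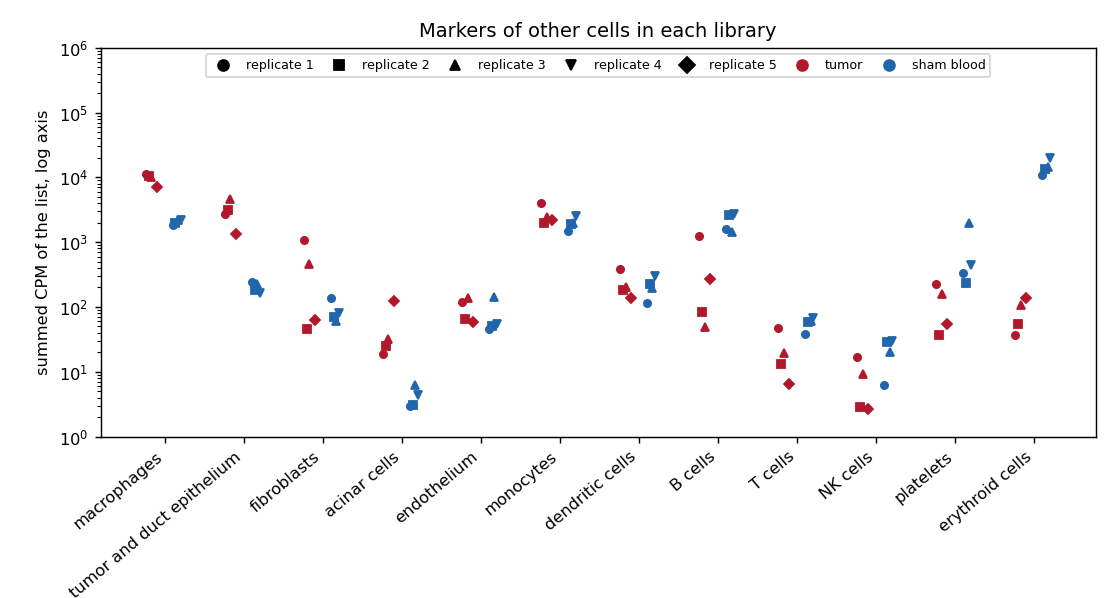
Summed CPM (log axis) of the marker lists of other cells in each library, tumor libraries in red on the left of each list and sham blood libraries in blue on the right, with the replicate given by the symbol. Macrophage and epithelial sums were higher in all 4 tumor libraries, erythroid, platelet and B cell sums were higher in all 4 sham libraries, and fibroblast sums were highest in tumor replicates 1 and 3.

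Chemokine ligands had the largest share of members that rose among the 29 lists of neutrophil functions and states. Of 23 tested, 21 rose, against 11.2% of all genes, and 1 fell, and the median log2 fold change was 8.10, also with members that had no count in a group set to their bound, where that of all tested genes was 0.00. Cxcl2, a neutrophil attractant that signals through CXCR2 (chromosome 5, positions 90903871 to 90905938), had 8001, 11583, 8927 and 18018 CPM in the tumor and 75.1, 70.3, 95.5 and 22.7 CPM in sham blood. The lowest tumor library was far above the highest sham library, and the log2 fold change was 7.46 ± 0.59 (adjusted p = 1.9e-08). Cxcl3, a close relative on the same chromosome, had 422, 493, 630.5 and 1237 CPM in the tumor and 0, 0.310, 0.507 and 0.153 CPM in sham blood, where replicate 1 had no count (log2 fold change 11.44 ± 0.94). Ccl3 and Ccl4, attractants of monocytes and T cells, had 1081, 1007, 1341 and 1534 and 1040.4, 422, 537 and 428 CPM in the tumor and 51.8, 33.9, 17.6 and 25.8 and 13.2, 12.1, 15.96 and 5.33 CPM in sham blood. Both rose, by 5.26 ± 0.39 and 5.70 ± 0.40 on the log2 scale. Ccl6 was the member that fell, to 3431, 1185, 2472 and 2017 CPM in the tumor against 4821, 4537, 3313 and 4798 CPM in sham blood, with overlapping ranges (log2 fold change -0.94 ± 0.26, adjusted p = 0.012, and 0.063 without tumor replicate 2). Without tumor replicates 1 and 3, 18 of the 23 ligands rose.

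The genes of the CXCR2 ligands Cxcl1, Cxcl2 and Cxcl3 lie together on chromosome 5, and the bases just before their starts are shown because the members moved together and NF-kB, a transcription factor of inflammation, is known to act there. Cxcl1, chosen after its values were seen, averaged 175 CPM in the tumor and 0.134 CPM in sham blood (log2 fold change 10.35 ± 1.12, adjusted p = 5.7e-07). The windows are the 250 bases before the RefSeq start on GRCm38.p6 (mm10), all on the plus strand, at chr5:90890995-90891244, chr5:90903649-90903898 and chr5:90785851-90786100, written 5′ to 3′. Capitals mark matches to an NF-kB motif of 10 letters, GGG followed by NN, TT, N and CC, on either strand.
Cxcl1: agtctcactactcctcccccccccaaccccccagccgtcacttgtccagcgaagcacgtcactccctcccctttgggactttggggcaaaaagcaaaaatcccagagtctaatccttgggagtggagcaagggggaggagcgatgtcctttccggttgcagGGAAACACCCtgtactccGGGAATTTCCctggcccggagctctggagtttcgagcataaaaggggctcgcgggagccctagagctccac
Cxcl2: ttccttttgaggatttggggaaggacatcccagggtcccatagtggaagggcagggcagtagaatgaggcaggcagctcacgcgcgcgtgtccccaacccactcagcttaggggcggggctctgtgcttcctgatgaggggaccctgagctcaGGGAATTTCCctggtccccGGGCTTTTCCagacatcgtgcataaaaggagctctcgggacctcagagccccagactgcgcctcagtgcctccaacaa
Cxcl3: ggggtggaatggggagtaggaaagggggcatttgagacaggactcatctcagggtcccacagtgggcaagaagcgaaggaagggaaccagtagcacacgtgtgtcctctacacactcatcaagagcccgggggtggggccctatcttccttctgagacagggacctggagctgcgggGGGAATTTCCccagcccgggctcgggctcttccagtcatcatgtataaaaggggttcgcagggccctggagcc
The Cxcl1 window held 2 matches, 89 and 71 bases before the start, the Cxcl2 window 2, at 97 and 78 bases, and the Cxcl3 window 1, at 73 bases. Over all 32851 windows of this length in the table, 4.11% held a match on either strand. Of genes with a window, 4.71% had a match before at least 1 start, as had 6 of the 15 chemokine ligand genes found by symbol. A match describes letters and is not evidence that the factor binds there in these cells.

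Cytokines and growth factors followed, with 16 of 29 higher and 6 lower and a median log2 fold change of 3.60. Il1a, the precursor of interleukin-1 alpha, had 1759.7, 896, 678 and 732 CPM in the tumor and 0.136, 0.388, 1.66 and 0.0767 CPM in sham blood, with a log2 fold change of 10.80 ± 1.04 (adjusted p = 1.4e-07). Il1b, already abundant in blood, had 6571, 9442, 4334 and 10992 CPM in the tumor and 4415, 2879, 5236 and 3585 CPM in sham blood, where the ranges overlap (log2 fold change 0.96 ± 0.31, adjusted p = 0.027). Leaving out sham replicate 2 or 4 or tumor replicate 2 or 5 raised the adjusted p of Il1b to between 0.063 and 0.11. The exons of Il1a overlap those of Gm14023 in part, which had 71.7 CPM in the tumor and 0.414 CPM in sham blood. Il1rn, which encodes the antagonist of the interleukin-1 receptor, averaged 1465 ± 59.9 CPM in the tumor and 679.9 ± 259 CPM in sham blood. Osm, oncostatin M, averaged 808 ± 337 CPM in the tumor and 167 ± 70.9 CPM in sham blood and rose by 2.28 ± 0.34. Several growth factors had no count in sham blood. Areg and Ereg, the EGF receptor ligands amphiregulin and epiregulin, had 21.1, 6.99, 15.1 and 10.5 and 7.74, 5.04, 9.68 and 1.91 CPM in the tumor, at least 898-fold and 418-fold more. Csf2, Csf3 and Il10 stood at 2.04, 2.21 and 3.06 CPM on average in the tumor, at least 138-fold, 148-fold and 205-fold more, and Il10 was highest in tumor replicate 1.

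Of the 6 cytokines that fell, Il1f9, Tnfsf14 and Il15 fell the most. Il1f9, the interleukin-36 gamma gene, had 52.01, 135, 93.9 and 193 CPM in the tumor and 1235, 739.7, 990.5 and 676 CPM in sham blood. Tnfsf14, the ligand LIGHT, had 23.8, 28.1, 26.3 and 53.6 CPM in the tumor and 310.4, 216, 238 and 242 CPM in sham blood, and Il15, a survival factor of NK cells and memory T cells, had 10.8, 22.4, 9.54 and 16.9 CPM in the tumor and 267, 118, 183 and 128 CPM in sham blood. For all 3 genes every tumor library was below every sham library, and the falls were 2.94, 2.93 and 3.54 on the log2 scale. Tgfb1, which encodes transforming growth factor beta 1, averaged 67.7 ± 19.2 CPM in the tumor and 128 ± 28.7 CPM in sham blood and fell (adjusted p = 0.0042).

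Genes of NF-kB and its targets were split, with 7 of 20 higher and 7 lower. Of the 7 that rose, 4 encode proteins of the IkB family and another A20, which limit or modulate the factor. Nfkbia, which encodes the inhibitor IkB alpha, had 3029.8, 3801, 2905 and 5628 CPM in the tumor and 309, 393, 286 and 276 CPM in sham blood (log2 fold change 3.60 ± 0.38). Tnfaip3, the deubiquitinase A20, averaged 1352 ± 503 CPM in the tumor and 70.5 ± 27.8 CPM in sham blood, and Nfkbiz and Nfkbid, nuclear IkB proteins, averaged 1076 and 571 CPM against 159 and 137 CPM. Subunits of the factor itself were among those that fell. Rela and Nfkb2 averaged 157 and 67.9 CPM in the tumor against 243 and 115 CPM in sham blood. Bcl3, a coactivator that also belongs to the IkB family, averaged 80.9 CPM in the tumor against 298 CPM. Tnip1, another inhibitor, fell as well, to 44.9 CPM in the tumor against 69.1 CPM in sham blood. Nfkbie and Zc3h12a, inhibitors too, did not pass. Tnip1, Nfkbie and Zc3h12a were added after their values were seen and are not among the named genes counted below. Without tumor replicates 1 and 3, 7 members rose and 2 fell.

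Immediate early genes, which are switched on within minutes of a stimulus and without new protein synthesis, were higher for 14 of 24 members and lower for 1. Egr1, a zinc finger factor of this kind, had 2930.2, 6396, 4913 and 8844 CPM in the tumor and 18.2, 21.7, 20.9 and 22.02 CPM in sham blood, with a log2 fold change of 8.12 ± 0.77 (adjusted p = 1.1e-07). Ier3, a regulator of survival, had 1109, 2147, 2041 and 2743 CPM in the tumor and 179, 114, 185 and 133 CPM in sham blood. Jun, a subunit of AP-1, averaged 1205 ± 508 CPM in the tumor and 150.4 ± 60.3 CPM in sham blood, and Nr4a1, an orphan nuclear receptor, 981 ± 296 against 258 ± 47.8 CPM. Zfp36, which destabilizes cytokine mRNAs, was high in both groups, with 6531, 7973, 6959 and 11255 CPM in the tumor and 5252, 4221, 3554 and 3579.7 CPM in sham blood (log2 fold change 0.98 ± 0.19). These genes are also known to respond to warm tissue digestion, which only the tumor cells of this comparison had, so the digestion and the tumor cannot be told apart here. Ier5 was the member that fell, at 438 CPM in the tumor against 730.3 CPM in sham blood (adjusted p = 0.025), with overlapping ranges, and its adjusted p was between 0.057 and 0.11 without sham replicate 1 or 4 or tumor replicate 1, 2 or 3.

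Among heat shock chaperones 7 of 15 rose and 1 fell. Hspa1a and Hspa1b, near-identical copies of the inducible HSP70 gene whose split is uncertain, averaged 109 and 149 CPM in the tumor against 10.6 and 22.8 CPM in sham blood, where replicate 1 was the highest for both. Dnaja1, a cochaperone of the HSP40 family, fell to 72.3 ± 4.93 CPM in the tumor against 226 ± 169.8 CPM in sham blood. Without tumor replicates 1 and 3, 4 chaperones rose.

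Of genes of endoplasmic reticulum stress, 12 of 18 rose and 3 fell. Hspa5, the chaperone BiP of the reticulum, had 1698, 918, 1256 and 1069 CPM in the tumor and 671, 579.5, 679.6 and 523 CPM in sham blood (log2 fold change 1.01 ± 0.19). Xbp1, the factor that IRE1 activates by splicing, had 731, 1269, 1149 and 1593 CPM in the tumor and 382, 396, 584 and 423 CPM in sham blood. The groups did not overlap for either gene. Ppp1r15a and Calr averaged 789 and 365 CPM in the tumor against 222 and 158 CPM in sham blood. The 3 members that fell were Chac1, Sesn2 and Herpud1, at 7.83, 74.04 and 105 CPM in the tumor against 47.2, 218 and 194 CPM in sham blood.

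The hypoxia response, which HIF factors drive when oxygen is low, was higher for 19 of 23 members and lower for 2, with a median log2 fold change of 2.46. Ero1l, an oxidase that forms disulfide bonds in the reticulum (chromosome 14, positions 45283087 to 45318771), had 913, 667, 810.1 and 922 CPM in the tumor and 94.4, 53.4, 38.6 and 34.4 CPM in sham blood, a log2 fold change of 3.91 ± 0.29 (adjusted p = 8.6e-09). Hilpda, a lipid droplet protein that blocks fat breakdown, had 729.7, 545, 551 and 773 CPM in the tumor and 2.78, 0.736, 0.566 and 1.13 CPM in sham blood, a log2 fold change of 8.97 ± 0.78. For both genes the 4 tumor libraries lay close together and far above the sham libraries. Bhlhe40, a basic helix-loop-helix repressor, averaged 785 ± 72.5 CPM in the tumor and 29.5 ± 4.80 CPM in sham blood, and Plin2, the coat protein of lipid droplets, 955 ± 251 against 186 ± 41.2 CPM. The members that fell were Pfkfb4, a regulator of glycolysis, with 60.8, 106, 48.9 and 130.1 CPM in the tumor and 605, 332, 553 and 530.4 CPM in sham blood, and Mxi1, a repressor of MYC targets, with 142 CPM on average in the tumor and 288 CPM in sham blood. Without tumor replicates 1 and 3, 18 members rose.

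The bases before the starts of Ero1l (Ero1a in RefSeq) and Hilpda are shown because HIF factors are known to bind the core letters ACGTG or GCGTG in front of hypoxia genes. The windows lie at chr14:45318573-45318822 on the minus strand and chr6:29272376-29272625 on the plus strand of GRCm38.p6, and the window of Hilpda lies before the downstream of its 2 annotated starts. Capitals mark these letters or their reverse complements CACGT and CACGC.
Ero1l: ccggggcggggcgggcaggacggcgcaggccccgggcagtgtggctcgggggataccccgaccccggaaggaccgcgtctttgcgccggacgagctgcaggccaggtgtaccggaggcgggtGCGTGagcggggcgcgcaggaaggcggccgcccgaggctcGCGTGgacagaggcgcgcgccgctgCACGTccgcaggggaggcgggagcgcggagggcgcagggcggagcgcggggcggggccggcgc
Hilpda: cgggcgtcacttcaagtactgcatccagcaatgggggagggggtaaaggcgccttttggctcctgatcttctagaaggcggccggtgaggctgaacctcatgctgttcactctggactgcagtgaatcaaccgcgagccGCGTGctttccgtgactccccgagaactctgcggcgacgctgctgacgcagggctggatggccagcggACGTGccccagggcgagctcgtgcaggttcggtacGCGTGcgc
Each window held 3 matches, 128, 88 and 63 bases before the start in Ero1l and 111, 43 and 8 bases before it in Hilpda. The Ero1l coordinates given above, from GENCODE, start upstream of this RefSeq start. The 3 Ero1l matches thus lie inside the gene as placed there. The window of the upstream start of Hilpda held none. These short letters are common, and 38.6% of all 32851 windows held a match on either strand. Of genes with a window, 41.5% had a match before at least 1 start. So had 21 of the 21 list members found in the table, including the 2 that fell. The list was made of genes that HIF factors are known to drive, so this share does not come from these data. A match here too is not evidence that the factor binds there in these cells.

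Glycolysis genes mostly rose, 14 of 20, and 3 fell. Ldha, lactate dehydrogenase A, had 2190.0, 1841, 2008 and 1665 CPM in the tumor and 771, 461, 519 and 464 CPM in sham blood, with no overlap (log2 fold change 1.80 ± 0.17). Gapdh, Eno1 and Aldoa averaged 1235, 1662 and 1482 CPM in the tumor against 416, 912 and 868 CPM in sham blood. The 3 members that fell act in glucose uptake, glucose phosphorylation and lactate export. By contrast Slc2a1 (uptake), Hk1 and Hk2 (phosphorylation) rose. They averaged 445, 150 and 176 CPM in the tumor against 164, 100 and 38.2 CPM in sham blood. These genes were added after their values were seen and are not among the named genes counted below. Slc2a3, the glucose transporter GLUT3, had 78.5, 248, 129 and 271 CPM in the tumor and 1938, 1339, 1375 and 1260.1 CPM in sham blood, a fall of 3.02 on the log2 scale (SE 0.34). Hk3, the hexokinase of myeloid cells, averaged 103 ± 18.1 CPM in the tumor and 535 ± 85.2 CPM in sham blood, and Slc16a3, the lactate exporter MCT4, 515 ± 57.9 against 1013 ± 496 CPM (adjusted p = 0.019, and 0.052 to 0.13 without sham replicate 1 or tumor replicate 1 or 3).

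Transcripts of the mitochondrial genome were higher for 7 of the 9 tested genes, and none was lower. mt-Co1, a subunit of cytochrome c oxidase, had 635, 419.9, 514 and 488 CPM in the tumor and 102, 145, 136 and 191 CPM in sham blood. Their share of all counts was low in both groups, at 0.214 to 0.347% in the tumor and 0.0625 to 0.134% in sham blood. Of the 13 mitochondrial genes listed, mt-Nd4l, mt-Co2, mt-Atp6 and mt-Atp8 were not among the tested genes. In the tumor mt-Nd3 and mt-Co3 averaged only 0.0885 and 0.0147 CPM. The counts thus hold only part of these transcripts, and the low share is not a measure of the cells. Among genes of iron, heme and oxidative stress, 7 of 18 rose and 3 fell. Fth1, the ferritin heavy chain that stores iron, had 9919.9, 10885, 10996 and 17576 CPM in the tumor and 6791, 3594, 4250.2 and 3651 CPM in sham blood, whereas Slc40a1, the iron exporter ferroportin, had 76.8, 126, 113 and 109.5 CPM in the tumor and 2856, 2356, 2356 and 2538 CPM in sham blood. Ferroportin fell by 4.57 on the log2 scale (SE 0.33, adjusted p = 6.9e-09) and ferritin rose by 1.43 ± 0.29. Hmox1, which degrades heme, and Prdx1, a peroxidase, averaged 416 and 441 CPM in the tumor against 113 and 60.3 CPM in sham blood, both with their highest value in tumor replicate 1. Mt1, the metal-binding metallothionein, averaged 183 CPM in the tumor against 0.782 CPM in sham blood.

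The 2 interferon lists moved in different directions. In the list of genes known from type I interferon, 10 of 24 fell and 1 rose, with a median log2 fold change of -1.07. Irf7, the master factor of this response, had 86.4, 115, 121 and 102 CPM in the tumor and 425, 296, 323 and 365 CPM in sham blood, without overlap (a fall of 1.73, SE 0.26). Rsad2, the antiviral protein viperin, and Rtp4 averaged 98.1 and 88.01 CPM in the tumor against 446 and 325 CPM in sham blood. The gene that rose was Bst2, tetherin, at 36.2 CPM in the tumor against 13.4 CPM. Without tumor replicates 1 and 3, 5 members fell and none rose. In the list known from interferon gamma, 14 of 24 rose and none fell, with a median of 1.73. Cd274, the checkpoint ligand PD-L1, had 343, 411, 377 and 489 CPM in the tumor and 195, 91.98, 87.5 and 87.5 CPM in sham blood (log2 fold change 1.81 ± 0.33, adjusted p = 3.5e-04). Socs3, a feedback inhibitor of cytokine receptors, averaged 2214 ± 458 CPM in the tumor and 1034 ± 258 CPM in sham blood, and Gbp2, a guanylate-binding protein of a family with similar sequences, 233 ± 125 against 74.4 ± 36.2 CPM (adjusted p = 0.014, and 0.062 without tumor replicate 2).

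Of 11 genes of presentation on MHC class II, which macrophages and B cells use, 3 rose and 3 fell. Ctss, the cathepsin that cleaves the invariant chain, had 2587, 1857, 1696 and 1356 CPM in the tumor and 175, 316, 389 and 443 CPM in sham blood, and H2-Eb1, a class II beta chain, had 773, 600.0, 253 and 231 CPM in the tumor and 87.03, 222, 221 and 242 CPM in sham blood with overlapping ranges (adjusted p = 0.038, and 0.058 to 0.14 without tumor replicate 1 or 2 or sham replicate 1, 2 or 3). The genes that fell were H2-Ob, H2-Oa and H2-DMb2, of which the H2-O chains are known from B cells, at 0.635, 0.901 and 12.5 CPM in the tumor against 56.3, 9.07 and 56.6 CPM in sham blood. The number that rose was 1 without tumor replicate 1, without sham replicate 1, 2 or 3 and without tumor replicates 1 and 3, and 6 without tumor replicate 5.

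Of 20 genes that restrain or costimulate T cells 10 rose and 5 fell. Arg1, the arginase that removes arginine (chromosome 10, positions 24915221 to 24927484), had 4295, 937, 1809 and 749 CPM in the tumor and 0.407, 1.36, 0.956 and 0.0575 CPM in sham blood, with a log2 fold change of 11.44 ± 1.33 (adjusted p = 1.4e-06). Tumor replicate 1, which also held the most macrophage and fibroblast markers, had the highest value. Ptgs2, the inducible cyclooxygenase, had 2185, 1569.8, 1151 and 1625 CPM in the tumor and 103, 82.8, 80.3 and 60.7 CPM in sham blood (log2 fold change 4.32 ± 0.44). Nt5e, CD73, which makes adenosine, had 170.4, 169.9, 196 and 157 CPM in the tumor and 23.9, 9.63, 8.63 and 11.2 CPM in sham blood. Entpd1, CD39, which acts in front of CD73, went the other way and fell, with 116, 192, 111 and 151 CPM in the tumor and 979, 441, 565 and 419 CPM in sham blood. The mitochondrial arginase Arg2 fell too, to 72.4 ± 32.7 CPM in the tumor against 322 ± 122 CPM in sham blood, and part of its exons overlaps the neighbouring gene Vti1b. The inhibitory receptors Siglece and Vsir averaged 200.4 and 406 CPM in the tumor against 501 and 743 CPM in sham blood.

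A list of genes described in tumor neutrophils by other studies held 17 of 26 members that rose and 4 that fell. Ccrl2, an atypical receptor that binds chemerin, had 3716, 3682, 2984 and 4608 CPM in the tumor and 46.9, 33.8, 25.5 and 19.2 CPM in sham blood (log2 fold change 6.90 ± 0.45). Cd14, the lipopolysaccharide coreceptor, had 3686, 3818, 2565 and 7077 CPM in the tumor and 481, 158, 315 and 146 CPM in sham blood (log2 fold change 3.96 ± 0.41). Spp1, osteopontin, had 3569.7, 861, 1680.5 and 440.4 CPM in the tumor and 33.4, 12.1, 9.87 and 11.8 CPM in sham blood. It was highest in tumor replicates 1 and 3, the libraries with the most fibroblast markers, and its exons overlap in part those of Gm42793, which had 16.1 CPM in the tumor and 0.0829 CPM in sham blood. Besides Il1f9, the members that fell were Jaml, an adhesion molecule, at 145 CPM in the tumor against 781 CPM in sham blood, Cd84, at 209.7 against 472 CPM, and Slc27a2, a fatty acid transporter described in suppressive neutrophils, at 0.681 against 5.05 CPM (adjusted p = 0.043, and 0.054 to 0.11 without sham replicate 1, 3 or 4 or tumor replicate 1, 3 or 5).

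**Figure D3:**
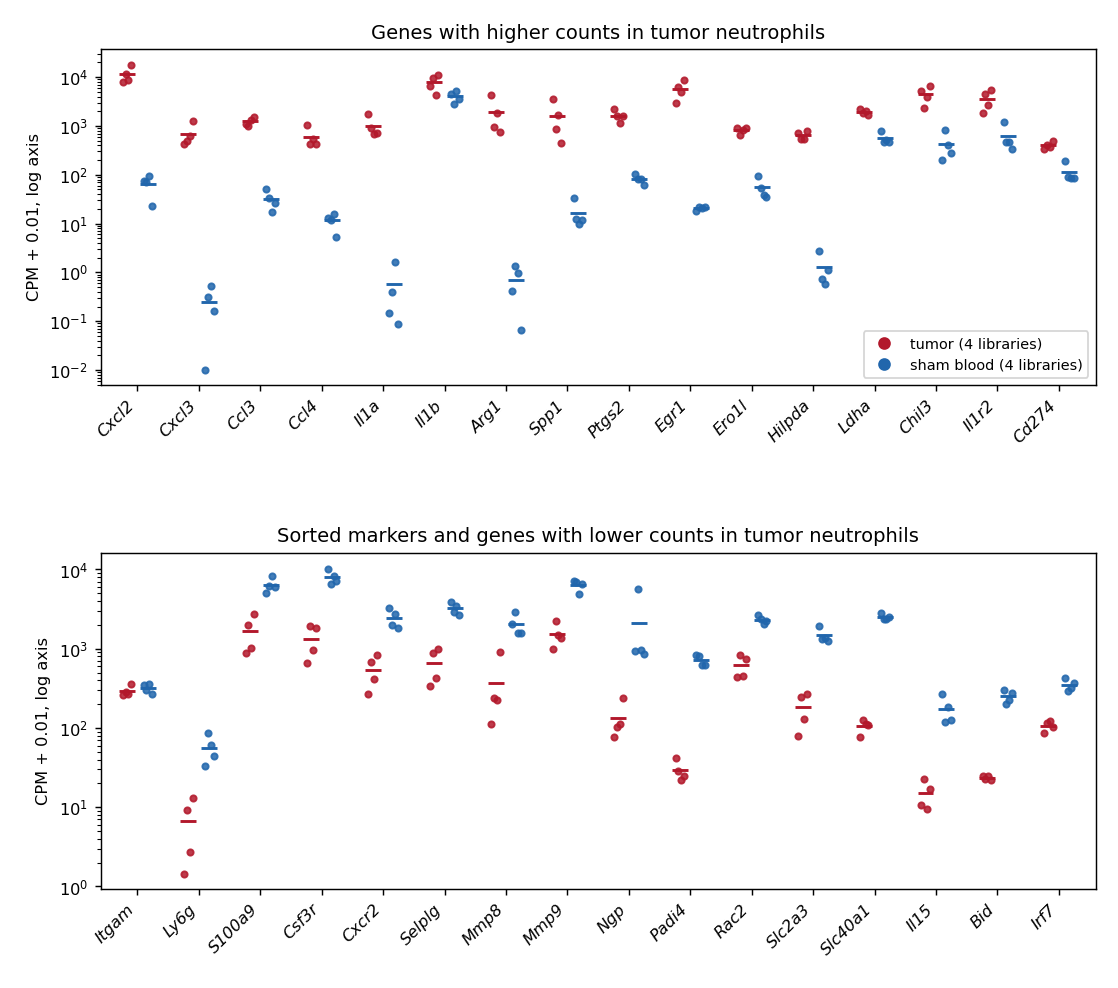
CPM + 0.01 (log axis) in each library for genes of both directions, with tumor libraries in red on the left of each gene, sham blood libraries in blue on the right and bars at the arithmetic means. Itgam and Il1b overlap between the groups, and for genes such as Cxcl2, Arg1, Csf3r and Padi4 all 4 tumor libraries are on 1 side of all 4 sham libraries.

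Lower in the tumor were most genes that define a blood neutrophil. Of 25 identity genes 19 fell, against 10.3% of all genes, and 3 rose, with a median log2 fold change of -1.90. They summed to 8895, 20427, 12263 and 24898 CPM in tumor replicates 1, 2, 3 and 5 and to 43043 to 63700 CPM in sham blood. The sum was lowest in tumor replicates 1 and 3, which held the most fibroblast markers. Without both of these libraries 16 fell and 4 rose. The part of RNA from other cells in these falls was not tested. Csf3r, the receptor of granulocyte colony-stimulating factor, had 665, 1911, 953 and 1829 CPM in the tumor and 10268, 6619, 8169 and 7193 CPM in sham blood, a fall of 2.59 on the log2 scale (SE 0.29, adjusted p = 9.8e-07). S100a9, a subunit of calprotectin, had 878, 1985, 1022 and 2761 CPM in the tumor and 5085, 6106, 8249 and 5980.0 CPM in sham blood. Mxd1, a MAX partner that rises as granulocytes mature, averaged 1637 ± 739.8 CPM in the tumor and 5793 ± 2565 CPM in sham blood. The 3 that rose were Il1r2, Trem1 and Cd177. Il1r2, the decoy receptor of interleukin-1, had 1874, 4541, 2661 and 5349 CPM in the tumor and 1189, 469, 471 and 333 CPM in sham blood (log2 fold change 2.55 ± 0.49). Trem1, an activating receptor, averaged 983 CPM in the tumor and 467 CPM in sham blood, and Cd177, a neutrophil surface protein, 885 against 453 CPM, both with overlapping ranges (adjusted p = 0.0034 and 0.046). The adjusted p of Cd177 was between 0.073 and 0.14 when any single library other than tumor replicate 1 or sham replicate 2 was left out.

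Granule genes are transcribed in marrow precursors. Of 20 genes of secondary and tertiary granules 14 fell and 2 rose. Mmp9, gelatinase B, had 983, 2209, 1473 and 1383 CPM in the tumor and 7171, 6854, 4922 and 6494 CPM in sham blood, and Mmp8, the neutrophil collagenase, had 113, 242, 228 and 906 CPM in the tumor and 2040.2, 2930.0, 1567 and 1584 CPM in sham blood. Ngp, neutrophilic granule protein, had 76.8, 103, 114 and 241 CPM in the tumor and 941, 5649, 973 and 869 CPM in sham blood, with sham replicate 2 far above the other sham libraries. All 3 fell, by 2.07, 2.45 and 3.98 on the log2 scale. Chil3, a chitinase-like protein of granules and macrophages, rose instead and had 5224, 2382, 3975 and 6526 CPM in the tumor and 197, 828, 413 and 282 CPM in sham blood (log2 fold change 3.40 ± 0.62). Of 9 azurophil granule genes Ctsc and Prtn3 rose and none fell. Ctsc, which activates the serine proteases of the granule and is expressed by macrophages too, averaged 1081 CPM in the tumor against 154 CPM in sham blood and was highest in tumor replicate 1. Prtn3, proteinase 3, averaged 25.4 against 1.13 CPM, and part of its exons overlaps Plppr3, at 18.05 against 1.95 CPM.

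Genes by which neutrophils sense attractants and leave the vessel were mostly lower. Of 19 receptors of attractants 10 fell and 3 rose. Cxcr2, the receptor of the chemokines above, had 272, 672, 415 and 825 CPM in the tumor and 3251, 2015, 2781 and 1841 CPM in sham blood (a fall of 2.18, SE 0.28), while transcripts of its ligands rose. C5ar1 and Fpr1, which sense complement C5a and formyl peptides, averaged 1050.3 and 179 CPM in the tumor against 2246 and 458 CPM in sham blood, and Cxcr4, the marrow homing receptor, 48.04 against 133 CPM. Besides Ccrl2, C3ar1 was among those that rose, at 169.6 CPM in the tumor against 2.54 CPM, and it was highest in tumor replicate 1. In adhesion and rolling 7 of 14 fell and 2 rose. Selplg, the selectin ligand PSGL-1, had 336, 879, 423 and 982 CPM in the tumor and 3923, 2901, 3456 and 2688 CPM in sham blood. Itgb2, the beta chain that pairs with CD11b, had 702, 516, 427 and 549 CPM in the tumor and 2321, 2069.6, 2091 and 1879 CPM in sham blood, whereas its partner Itgam did not pass the test. Icam1 rose to 150.3 ± 30.4 CPM in the tumor against 38.5 ± 10.03 CPM in sham blood.

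The genes with the most counts among those called lower were, besides Csf3r, Mmp9, Selplg and the globins, genes of the leukocyte cytoskeleton and surface. Lcp1, the actin bundler L-plastin, had 1537, 2200.2, 1664 and 2132 CPM in the tumor and 10105, 6619.6, 9235 and 6627 CPM in sham blood. Ptprc, which encodes CD45, had 448, 615, 369 and 582 CPM in the tumor and 4178, 2783, 3790.0 and 3186 CPM in sham blood, a fall of 2.79 (SE 0.24). Zyx, the focal adhesion protein zyxin, averaged 623 ± 253 CPM in the tumor and 3377 ± 1038 CPM in sham blood, and Fgl2, a fibrinogen-like prothrombinase, 415 ± 98.3 against 4544 ± 1139 CPM. Apoe, the apolipoprotein of macrophages and other cells, was among the genes called higher with the most counts, at 4755, 6276, 5046 and 3697 CPM in the tumor and 236, 453, 619.7 and 602 CPM in sham blood (log2 fold change 3.37 ± 0.50).

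Of 11 genes of the NADPH oxidase and of extracellular trap formation 6 fell and none rose. Padi4, the deiminase that loosens chromatin for traps, had 42.2, 28.2, 21.9 and 24.5 CPM in the tumor and 842, 804, 629 and 618 CPM in sham blood, a fall of 4.63 (SE 0.36, adjusted p = 1.5e-08). The groups did not overlap. Rac2, the GTPase of the oxidase, averaged 614 CPM in the tumor against 2319.5 CPM in sham blood. In granule secretion 10 of 19 fell and 1 rose. Those that fell included the kinase Fgr and the SNARE proteins Stx11 and Snap23, at 411, 82.2 and 375 CPM in the tumor against 1182, 445 and 981 CPM in sham blood.

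Proteases and pattern receptors were mixed. Of 25 proteases and matrix genes 12 rose and 4 fell, and the lysosomal cathepsins Ctsb and Ctsl averaged 2496 and 559 CPM in the tumor against 833 and 17.7 CPM in sham blood while Adam8, a sheddase, averaged 345 against 1114 CPM. Of 24 pattern receptors 10 fell and 5 rose. Clec4n, which encodes dectin-2, averaged 412 ± 46.3 CPM in the tumor and 62.2 ± 24.4 CPM in sham blood, and Clec7a, which encodes dectin-1, 460.5 ± 137 against 1099.8 ± 171.7 CPM, so these 2 receptors of fungal sugars moved in opposite directions. Among 8 Fc and paired receptors 3 rose and 2 fell. Fcgr2b, the inhibitory receptor of immunoglobulin G, had 717, 378, 478 and 309 CPM in the tumor and 41.97, 59.7, 75.6 and 73.3 CPM in sham blood, and Pirb, an inhibitory receptor of MHC class I in a family of similar sequences, averaged 296 against 1337 CPM.

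Lipid and eicosanoid genes were higher for 13 of 24 members and lower for 5. Besides Apoe, Plin2 and Ptgs2, Acod1, the enzyme that makes itaconate, averaged 434 ± 167 CPM in the tumor and 66.6 ± 50.8 CPM in sham blood. Of the leukotriene genes, Alox5, Alox5ap and Lta4h fell, to 245, 113 and 67.5 CPM in the tumor against 660.4, 229.7 and 109.7 CPM in sham blood (adjusted p = 1.4e-05, 0.0012 and 0.049). Ltc4s, the leukotriene C4 synthase, rose to 29.9 CPM in the tumor against 0.905 CPM in sham blood (adjusted p = 5.6e-06) and was added after its values were seen. The adjusted p of Lta4h was between 0.058 and 0.28 without tumor replicate 1, 2 or 3 or sham replicate 2 or 3. Among genes of survival and death 6 of 20 rose and 4 fell. Bcl2l1, the survival factor Bcl-xL, had 154, 336, 302 and 559.8 CPM in the tumor and 75.4, 70.2, 109.5 and 65.3 CPM in sham blood, and Bid, which carries death signals to mitochondria, had 24.5, 22.4, 25.02 and 21.8 CPM in the tumor and 305, 203, 223 and 276 CPM in sham blood. Neither pair of ranges overlaps. Bcl2a1a, a survival gene of a family with near-identical copies, averaged 68.6 against 5.61 CPM, whereas Fas, the death receptor, averaged 33.5 CPM in the tumor against 128 CPM in sham blood. Other members went the opposite way, as the death genes Casp8 and Bax rose to 86.9 and 72.8 CPM in the tumor against 38.7 and 28.8 CPM in sham blood, and Birc2, an inhibitor of apoptosis, fell to 27.6 CPM in the tumor against 70.6 CPM.

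Granulocyte transcription factors were split, with 6 of 23 higher and 8 lower. Spi1, the myeloid factor PU.1, and Klf3 fell to 505 and 149.6 CPM in the tumor against 1632 and 1163 CPM in sham blood. Cebpb, the factor of emergency granulopoiesis, averaged 2622 ± 900.1 CPM in the tumor and 1460.1 ± 273 CPM in sham blood with overlapping ranges (adjusted p = 0.0085), and part of its exons is shared with Tmem189. Of 20 cell cycle genes 13 rose and none fell. Rrm2, a ribonucleotide reductase subunit, had 84.4, 86.6, 149 and 33.8 CPM in the tumor and 2.01, 1.26, 5.62 and 2.28 CPM in sham blood. It was highest in tumor replicate 3, which also had the highest sum of epithelial markers. Without sham replicate 1, 8 cell cycle genes rose, and without tumor replicates 1 and 3, 6 did.

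**Figure D4:**
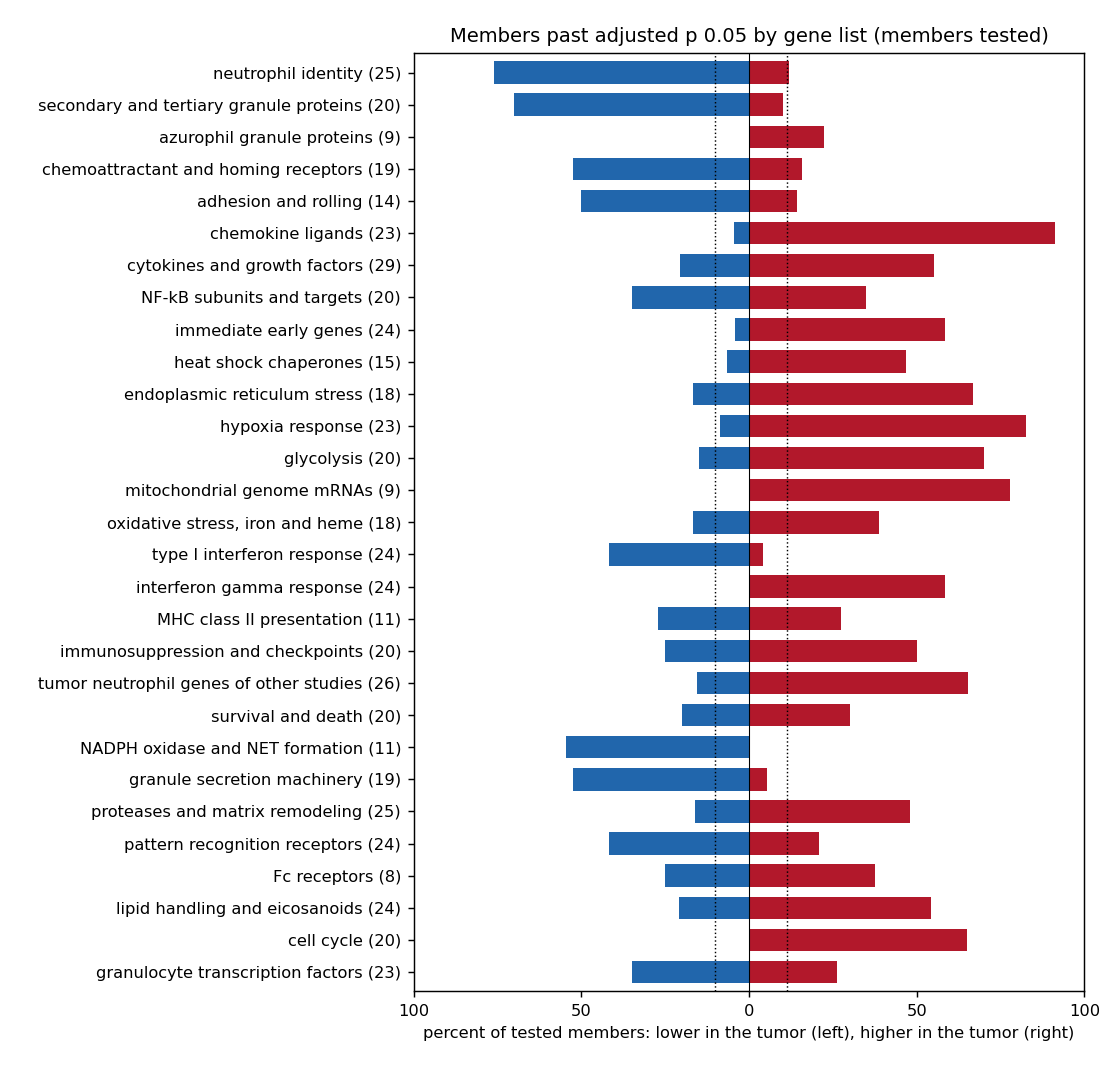
Percent of the tested members of each of the 29 lists of neutrophil functions and states, marker lists of other cells left out, that were lower (blue, left) or higher (red, right) in tumor neutrophils at an adjusted p under 0.05, with the number of tested members in parentheses and dotted lines at the 10.3% and 11.2% of all tested genes. Of all tested genes, 8417 had a mean of at least 10 CPM in either group, whereas most members of most lists did. The dotted lines thus rest on many genes of lower level. Among these lists, chemokine ligands and the hypoxia response reach farthest to the right, neutrophil identity and secondary granule genes farthest to the left.

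To place the largest changes, the levels in the other groups of tumor mice were set beside them. All contrasts come from the same model and share the tumor or the sham libraries, so their values are given side by side. Libraries of different sites may come from the same tumor mice, and the model did not pair them. Against the blood of tumor mice, 13.3% of all genes were higher in the tumor and 10.3% lower at an adjusted p under 0.05. Between the blood of tumor mice and of sham mice, 1.63% rose and 1.69% fell. Among the 11 MHC class II genes, 8 were higher and 1 was lower in the tumor than in the blood of tumor mice. From sham blood to the blood of tumor mice, 10 of them fell and 0 rose.

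Some changes were already seen in the blood of tumor mice. Il1r2 averaged 3606 CPM in the tumor, 3873 CPM in the blood of tumor mice and 615 CPM in sham blood, and the tumor and the blood of tumor mice differed by -0.10 on the log2 scale (adjusted p = 1). Chil3 averaged 4527, 2587 and 430.1 CPM in the same order. Both genes also rose between the bloods (adjusted p = 0.0027 and 0.015). Irf7 averaged 106 CPM in the tumor, 158 CPM in the blood of tumor mice and 352 CPM in sham blood, and it fell between the bloods (adjusted p = 0.012). Ptgs2, by contrast, had 1633 CPM in the tumor, 4.08 CPM in the blood of tumor mice and 81.7 CPM in sham blood. It rose in the tumor but fell between the bloods by 4.32 on the log2 scale (adjusted p = 4.4e-06).

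The liver and the brain were digested with collagenase as well, and some genes were high in all 3 tissues. Cxcl2 averaged 11632 CPM in the tumor, 18386 CPM in the liver and 10168 CPM in the brain, and the tumor did not pass the test against the mean of liver and brain (log2 difference -0.23, adjusted p = 0.82). Most other ligands were higher in the tumor, for 19 of 23 chemokine ligands were higher and 0 lower than in that mean, against 8.3% and 8.31% of all genes. Nfkbia averaged 3841, 4866 and 2459.7 CPM in tumor, liver and brain (log2 difference 0.15, adjusted p = 0.87). Egr1 averaged 5771, 3565 and 1979.7 CPM (log2 difference 1.12, adjusted p = 0.11). Of the 24 immediate early genes, 4 were higher and 11 lower in the tumor than in the mean of the other tissues.

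Genes of the hypoxia response were also higher in the tumor than in the mean of liver and brain, with 18 of 23 higher and 1 lower, and so were genes of the interferon gamma response, with 18 of 24 higher and 0 lower. Ero1l averaged 828 CPM in the tumor against 91.6 CPM in the liver and 65.04 CPM in the brain, a log2 difference of 3.42 (adjusted p = 2.7e-09). Arg1 and Spp1 were also higher in the tumor, with 1948 and 1638 CPM against 707 and 510.4 CPM in the liver and 16.3 and 54.4 CPM in the brain (adjusted p = 2.9e-04 and 1.3e-04). Padi4 and Csf3r stood lower in the tumor than in every other group, with 29.2 and 1339.5 CPM in the tumor, 326 and 4439.6 CPM in the liver, 718 and 3176 CPM in the brain and 483 and 6330.4 CPM in the blood of tumor mice. Their log2 differences from the mean of liver and brain were -4.05 and -1.49 (adjusted p = 5.0e-08 and 2.5e-04). Markers of macrophages and epithelium were also higher in the tumor than in that mean, for 8 of 20 and 16 of 18 genes, and their part in these differences was not tested.

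**Figure D5:**
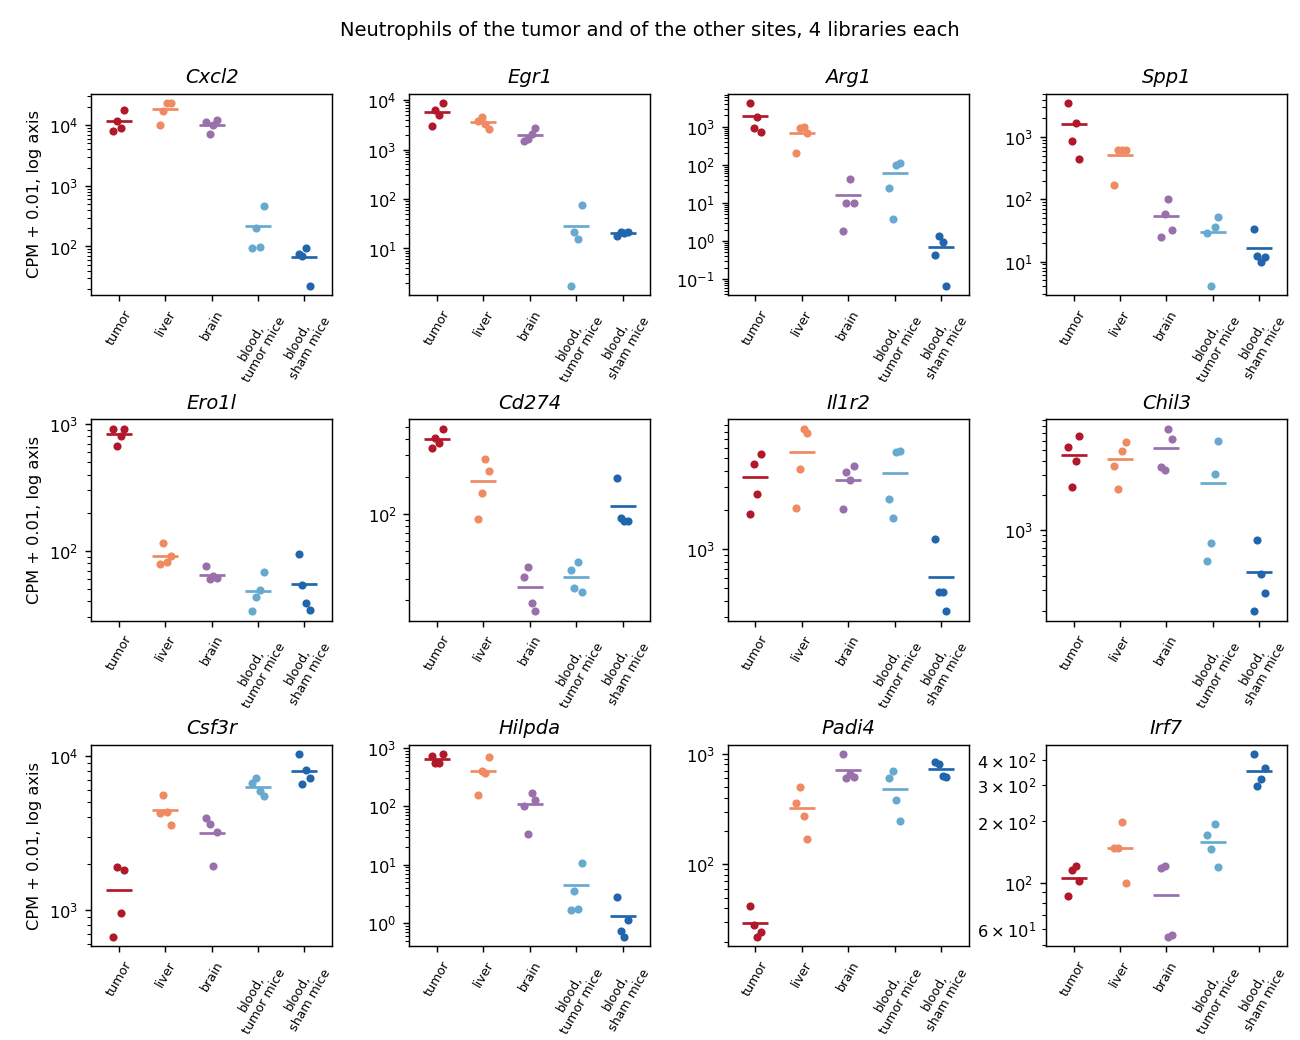
CPM + 0.01 (log axis) of 12 genes in the 4 libraries of each group, from left to right the tumor, liver, brain and blood of tumor mice and the blood of sham mice, with bars at the arithmetic means. Cxcl2 and Egr1 are high in all 3 tissues, Ero1l stands out in the tumor, Il1r2 is high in every group of tumor mice, and Csf3r and Padi4 are lowest in the tumor.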

How the data were processed

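Neutrophils of 20 libraries in 5 groups of 4 were read as single reads, and the authors deposited raw counts per gene, not normalized, for every library. Per the submitters' processing notes the genome was mm10 and DESeq2 was used. No aligner, counter or gene annotation was named, these being not given in the sources used here. A second deposited table of transformed values was not used. The depth per library, 48336758 to 52657231 counts in the 8 libraries compared, limits the precision of low counts only.

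The counts were fitted in edgeR 4.0.16 (R 4.3.3) with its quasi-likelihood test, in 1 model over all 20 libraries with the group as the only term (15 residual degrees of freedom). TMM scaling was used, genes without a count in any library were left out, and p-values were adjusted by Benjamini-Hochberg over the 28762 genes left. A called gene had an adjusted p under 0.05 and a log2 fold change of 2 or more in size, and members of lists were counted at an adjusted p under 0.05 in either direction. The scripts were tested on simulated data. Library totals, CPM, list sums and exon overlaps were computed from the counts, with gene coordinates and exons from a GENCODE annotation of mm10 and promoters from RefSeq.

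Named genes were the sort markers, the 12 genes that rose most and the 12 that fell most (called, at least 10 CPM, groups not overlapping), the 10 called genes with the most CPM in each direction, up to 4 members per list and direction, and members without a count in a group. Of the 266 genes that this rule names, 178 are reported, and the others are not reported here. The comparison, the lists and the rule were chosen with earlier results of these data known. Alternatives were DESeq2 1.42.0, its size factors in edgeR, filterByExpr, glmTreat, a lower fold threshold, lane as a term, a fit of the 8 libraries alone, the replicate number as a block, and leaving out each library. The fit without tumor replicates 1 and 3 was chosen after seeing the data.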

Additional observations from a re-analysis of the deposited data

Results flagged for a closer look

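In 24 of 378 groups of 4 values, 1 library lay apart from the other 3 by Dixon's test at the 95% level. Chance alone flags about 1 in 20 such groups, and values of 1 library are not independent. Causes were not tested.

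Sham replicate 1 stood apart for several genes named above. It was highest for Il1r2 at 1189 CPM (333 to 471 in the other sham libraries), Il1rn at 1068 CPM (535 to 569), Cd274 at 195 CPM (87.5 to 91.98) and Spp1 at 33.4 CPM (9.87 to 12.1). The same library was highest for Aldoa, Slc2a3 and Nt5e, at 1208, 1938 and 23.9 CPM, and lowest for H2-Eb1, at 87.0 CPM (221 to 242).

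Sham replicate 2 was highest for Ngp at 5649 CPM (869 to 973), Cd177 at 899 CPM (292 to 326), Krt19 at 1.10 CPM and Col1a1 at 0.523 CPM. Sham replicate 3 held the most platelet transcripts, with a summed level of 1958 CPM (232 to 445 in the others) and 33.9 and 37.7 CPM of Slc6a4 and Mpig6b. Its endothelial markers, which include the platelet gene Vwf, summed to 144 CPM (46.4 to 54.4).

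In the tumor, replicate 1 was highest for Il10 at 9.14 CPM (0.510 to 1.74 in the other tumor libraries). It also had the few counts of Slamf1 and Mpig6b found in the tumor, at 0.0149 and 0.0298 CPM. Tumor replicate 2 was highest for Gbp2 at 419.8 CPM (152 to 186). Tumor replicate 5 was highest for Mmp8 at 906 CPM (113 to 242), Fth1 at 17576 CPM (9919.9 to 10996) and Tnfsf14 at 53.6 CPM (23.8 to 28.1), and its acinar markers summed to 125 CPM (18.8 to 31.6).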

How the results depend on the processing

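Both counts of calls stayed within 1.5 times of 1980 higher and 1128 lower under most alternatives. Without tumor replicates 1 and 3, chosen after seeing the data, 1199 were called higher and 693 lower, in a fit that assumes both remaining tumor libraries to vary like the other groups. With a log2 threshold of 1 in place of 2, 2249 were called lower and 2835 higher. Leaving out 1 library gave 1460 to 2076 higher and 876 to 1144 lower. DESeq2 called 2545 higher and 1281 lower, and lane as a term 1787 and 1022. The size factors of DESeq2 moved all log2 fold changes by 0.12 upward, and in edgeR they gave 2142 higher and 1032 lower.

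Sham and tumor mice share replicate numbers 1, 2 and 3 but are different mice, and deviations of same-numbered libraries over 8417 genes correlated at -0.25, 0.0089 and 0.080, with 0 of 3 tumor libraries closest to the sham library of its own number. The replicate block gave 2006 higher and 1105 lower.

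Among the reported genes no direction was reversed under these alternatives. Of the values of single genes under an alternative, 2606 kept their side of the adjusted p of 0.05 and 64 lost it, 14 of them without tumor replicates 1 and 3. They belong to 18 genes. Of these, 9 lost it without a single library, as given beside those genes, 8 only without tumor replicates 1 and 3, and Rela there and with lane as a term. The fit of the 8 libraries alone lost Cd177, H2-Eb1, Ier5, Lta4h and Slc27a2, the size factors of DESeq2 lost Lta4h and Slc27a2, DESeq2 lost Lta4h, and the replicate block lost Il1b and Slc27a2. With glmTreat, which tests against a log2 fold change of 1, counted too, 43 of 177 genes lost their call under at least 1 alternative. The groups of 4 libraries limit the detection of small changes, and for genes without a count in a group the depth allows only a limit of the fold. The cause of the moved counts was not tested.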
